A study of Homo sapiens with 4 samples.

Results

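The large neutral amino acid transporters are encoded by 8 genes here, for carriers that move leucine and related amino acids across the plasma membrane and for a chain that several of them need. Among them is LAT1, the protein that the drug JPH203 was made to inhibit. They were taken as the probe sets of the array whose annotation names one of the 8 genes alone, which gave 15 probe sets of 8 genes, out of 41097 probe sets of 19775 genes. RNA was measured on 4 Affymetrix U133 Plus 2.0 arrays, 1 for each group. The groups were MDA-MB-231 cells with 100 μM JPH203, MDA-MB-231 cells with Captisol (control), T-47D cells with 100 μM JPH203 and T-47D cells with Captisol (control), all harvested at 24 h. MDA-MB-231 is an established triple negative breast cancer line, T-47D is an established hormone receptor-positive breast cancer line, and Captisol is a modified cyclodextrin used as vehicle at the same stated concentration as the drug. The values are signal intensities on a linear scale. No array was repeated, so a ratio of 2 arrays has no error, no test and no p-value here. RNA came from whole cultures, in which fewer cells that express a gene and less RNA per cell cannot be told apart.

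LAT1 is the light chain encoded by SLC7A5. It reaches the cell surface as a heterodimer with the glycoprotein 4F2hc, encoded by SLC3A2, and it exchanges leucine and other large neutral amino acids for intracellular ones such as glutamine without sodium. The same heavy chain also carries other light chains, LAT2 (SLC7A8), y+LAT2 (SLC7A6) and y+LAT1 (SLC7A7), of which the y+LAT pair exchange cationic against neutral amino acids. LAT3 (SLC43A1) and LAT4 (SLC43A2) belong to a separate family of facilitated carriers that need no heavy chain, and SLC6A14 encodes ATB0,+, a sodium- and chloride-coupled importer. When amino acids run short, the transcription factor ATF4 raises many genes of amino acid supply through composite C/EBP-ATF elements, and SLC7A5 and SLC3A2 are known as genes of this response.

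As SLC7A5 and SLC3A2 are known genes of that response, the promoter windows of the 8 genes were searched for the composite element TGATGNAA on both strands. The windows are those of RefSeq on GRCh38.p14, each holding 250 bases before a start site and 50 bases after it, and all 8 genes were matched, with 18 windows in all. The motif was found in 1 of the 18, a window of SLC3A2, and in 3.62% of all 35116 windows. By gene it was found in 1 of the 8, beside 4.46% of 27305 genes. The other windows of SLC3A2 held no match. The match lies at chr11:62881736-62881743, in the 50 bases after the start site, where it reads TTACATCA on the strand of the gene and TGATGTAA on the other. It overlapped no other match. The window with the match (chr11:62881449-62881748, plus strand) and the SLC7A5 window (chr16:87869458-87869757, minus strand), which held none, are shown to set the pair side by side, with capitals marking the matched bases.
SLC3A2: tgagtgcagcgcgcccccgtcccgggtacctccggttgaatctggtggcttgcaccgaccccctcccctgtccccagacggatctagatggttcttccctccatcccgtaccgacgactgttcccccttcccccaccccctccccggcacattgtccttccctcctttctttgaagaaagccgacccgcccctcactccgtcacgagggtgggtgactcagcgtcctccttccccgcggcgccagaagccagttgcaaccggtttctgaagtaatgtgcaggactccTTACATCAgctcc
SLC7A5: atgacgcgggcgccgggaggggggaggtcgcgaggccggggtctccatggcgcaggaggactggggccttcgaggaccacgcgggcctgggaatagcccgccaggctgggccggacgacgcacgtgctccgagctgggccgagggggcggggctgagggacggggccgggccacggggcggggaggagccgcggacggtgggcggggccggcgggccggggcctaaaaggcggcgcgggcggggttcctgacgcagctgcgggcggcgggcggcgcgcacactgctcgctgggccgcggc

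Of the 15 probe sets, 2 stayed at or above a signal of 100 throughout the 4 arrays, those of SLC7A5 and SLC3A2. A further 4 reached 100 on some arrays, and these were 2 of the 5 probe sets of SLC7A8 and 2 of the 3 of SLC7A6. The other 4 genes, SLC43A1, SLC43A2, SLC7A7 and SLC6A14, did not reach 100 on any array, with signals of 0.8 to 84.5 over their 5 probe sets. Each probe set has a brightness of its own, so the level of one gene was not set against that of another.

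**Figure D1:**
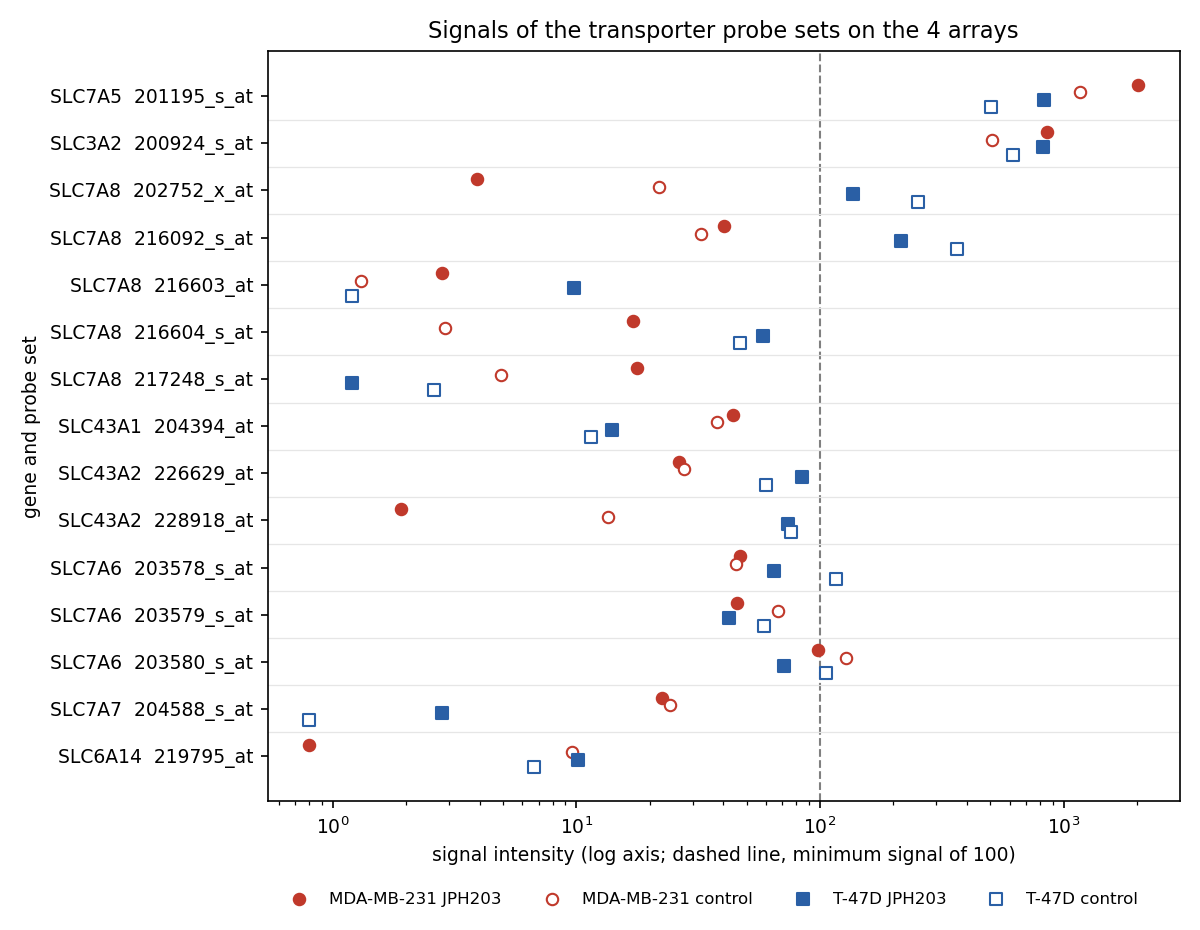
Signal intensity on a log axis (x axis) of each of the 15 transporter probe sets (y axis, gene and probe set), each point being 1 array. Filled symbols are JPH203 and open symbols control, red circles are MDA-MB-231 and blue squares T-47D cells, and the dashed line marks 100, the lowest signal at which ratios were read; the SLC7A5 and SLC3A2 points lie between 501.8 and 2024 and all other probe sets have points below the line.

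Facts of the arrays bear on every ratio below. The cell line labels went with their markers, since 7 of 8 mesenchymal markers reached 100 and were at least 2-fold higher on the MDA-MB-231 control array, and 9 of 9 luminal markers on the T-47D control array. The remaining mesenchymal marker, SPARC, was below 100 on all 4 arrays, at 30.0 on the MDA-MB-231 control array and 0.6 on the T-47D one. Each array was scaled on its own, with a mean of 99.98 once the lowest and highest 2% of values were left out. The SD of the log2 ratio of JPH203 over control was 0.198 across the MDA-MB-231 probe sets and 0.513 across the T-47D ones. Spiked poly-A transcripts, taken as a geometric mean, had JPH203 over control ratios of 0.927 for the MDA-MB-231 pair and 1.56 for the T-47D pair. The hybridization controls gave 0.975 for the MDA-MB-231 pair and 1.25 for the T-47D pair. For ACTB, the 3-prime over 5-prime ratio, a measure of RNA integrity, was 1.72 on the T-47D array with JPH203 and 1.39 on its control array, and for GAPDH it ran the other way, at 0.867 with JPH203 and 0.940 in the control. The part of these differences in the T-47D ratios was not tested.

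Both chains of the LAT1 complex had higher signals with JPH203 in MDA-MB-231 cells, where few genes moved. SLC7A5, the transporting chain, had a signal of 2024 in JPH203-treated MDA-MB-231 cells and 1168 in their controls, a ratio of 1.73. SLC3A2, the heavy chain, had 851 in JPH203-treated cells and 509 in controls, a ratio of 1.67. Neither reached a 2-fold change, so 0 of the 2 members that reached 100 on the JPH203 array and on the control array were called, against a background of 0.0883% of 6792 genes called higher and 0.0147% called lower. At 1.5-fold both were higher, beside 0.869% of all genes measured, while 0.456% were lower. Ranked by their brightest probe set among 6777 genes from the highest ratio down, SLC7A5 stood at 13 and SLC3A2 at 17. Of the 500 probe sets closest to each in control signal, the central 95% had ratios of 0.795 to 1.22 for SLC7A5 and 0.764 to 1.31 for SLC3A2, and both transporter ratios lay above these limits. Over the settings tried, the SLC7A5 ratio in these cells was 1.72 to 1.87 and the SLC3A2 ratio 1.65 to 1.80.

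In T-47D cells the same pair had higher deposited signals on the JPH203 array, within the spread of the other genes, and SLC3A2 was below its control once the arrays were scaled to the poly-A spike-ins. SLC7A5 had a signal of 834 in JPH203-treated T-47D cells and 502 in their controls, a ratio of 1.66, close to its ratio in MDA-MB-231 cells. SLC3A2 had 821 in JPH203-treated cells and 619 in controls, a ratio of 1.33. For both genes the deposited JPH203 signal was above the control signal of the same line in each line. None of the 3 members with at least 100 on both T-47D arrays was called at 2-fold, where 2.56% of 6451 genes were called higher and 2.95% lower. At 1.5-fold SLC7A5 was higher, as were 12.9% of all genes measured. Among 6416 genes SLC7A5 stood at 458 and SLC3A2 at 1293 from the highest ratio, and the probe sets nearest in control signal ranged from 0.485 to 1.99 for SLC7A5 and from 0.453 to 1.92 for SLC3A2 in their central 95%, so that both ratios lay inside.

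The T-47D ratios of the pair rest on the scaling of the arrays. With the poly-A spike-ins as the scale, the SLC7A5 ratio was 1.06 and the SLC3A2 ratio 0.849, below its control. The median log2 ratio of all T-47D genes was then -0.70. From the highest ratio SLC7A5 stood at 390 and SLC3A2 at 1100 of 4012 genes. With the hybridization controls as the scale, the SLC7A5 ratio was 1.33 and the SLC3A2 ratio 1.07. On that scale the median of all T-47D genes was -0.38, and SLC7A5 stood at 440 and SLC3A2 at 1242 of 5558 genes. Both scalings assume equal amounts of these controls on each array, which is not stated in the labels or methods. The log2 ratio in MDA-MB-231 minus that in T-47D cells was 0.06 for SLC7A5 and 0.33 for SLC3A2 as deposited. It was 0.41 and 0.69 for the same genes on the hybridization controls and 0.81 and 1.09 on the poly-A spike-ins, and with 1 array per group neither difference could be tested. In MDA-MB-231 cells the median log2 ratio of all genes was 0.036 on the hybridization controls and 0.11 on the poly-A spike-ins. With the T-47D medians above, these scalings set the lines apart over all genes, not only for this pair.

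**Figure D2:**
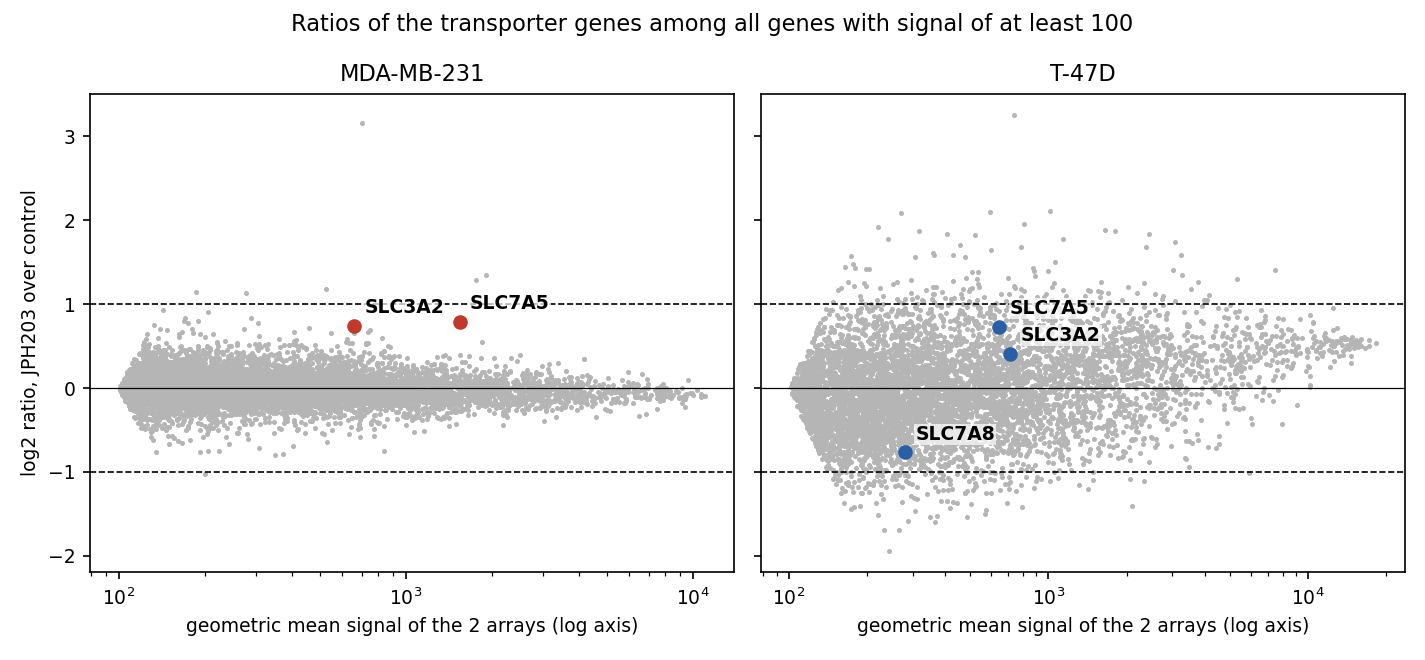
Log2 ratio of JPH203 over control (y axis) against the geometric mean signal of the 2 arrays on a log axis (x axis) in MDA-MB-231 cells (left) and T-47D cells (right). Each grey point is a gene's brightest probe set where both arrays reached 100, coloured points are transporter genes, and dashed lines mark 2-fold changes; in MDA-MB-231 cells SLC7A5 (ratio 1.73) and SLC3A2 (1.67) lie above nearly all genes of like signal, and in T-47D cells they lie inside the cloud.

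LAT2, the other large neutral light chain that pairs with 4F2hc, had lower signals with JPH203 in T-47D cells on the probe sets that could be read. On the brightest SLC7A8 probe set, T-47D cells had a signal of 215 with JPH203 and 366 in the control, a ratio of 0.588. On the next, T-47D cells had 136 with JPH203 and 253 in the control, a ratio of 0.537. Both were short of a 2-fold fall, and 15.7% of all genes measured in T-47D cells were at least 1.5-fold lower, as both probe sets were. The brightest lay inside the central 95% of probe sets of like control signal, 0.470 to 1.98. The remaining 3 SLC7A8 probe sets had signals of 1.2 to 58.1 on the T-47D arrays, too low for a ratio to be read. With the arrays scaled to the hybridization controls, the ratio of the brightest probe set was 0.473 and passed the 2-fold threshold. On that scale 512 of 5591 genes were called lower in T-47D cells. The mean over all 5 probe sets, dim ones included, gave a ratio of 1.08, so the lower T-47D value rests on the probe sets that reached 100. In MDA-MB-231 cells no SLC7A8 probe set exceeded 40.3 on either array, so no response of LAT2 to JPH203 could be read there.

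The y+LAT chains lay near or below the minimum. The brightest SLC7A6 probe set, for y+LAT2, had 97.9 with JPH203 and 128 in the control in MDA-MB-231 cells, and 70.9 with JPH203 and 106 in the control in T-47D cells. The second had 46.9 with JPH203 and 45.0 in the control in MDA-MB-231 cells, and 64.4 and 116 on the matching T-47D arrays. The third had 45.8 with JPH203 and 67.0 in the control in MDA-MB-231 cells, and 42.3 and 58.7 on the matching T-47D arrays. The JPH203 signal was below its control on all 3 probe sets in T-47D cells and on 2 of 3 in MDA-MB-231 cells, but in no case were both arrays at 100, so no fold is given. SLC7A7, for y+LAT1, had 22.4 with JPH203 and 24.3 in the control in MDA-MB-231 cells, and 2.8 with JPH203 and 0.8 in the control in T-47D cells.

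The carriers that need no heavy chain stayed below the minimum as well. SLC43A1, for LAT3, had 44.1 with JPH203 and 37.6 in the control in MDA-MB-231 cells, and 14.0 with JPH203 and 11.5 in the control in T-47D cells. The brighter SLC43A2 probe set, for LAT4, had 26.4 with JPH203 and 27.7 in the control in MDA-MB-231 cells, and 84.5 with JPH203 and 60.2 in the control in T-47D cells. The other had 1.9 with JPH203 and 13.5 in the control in MDA-MB-231 cells, and 73.8 with JPH203 and 75.8 in the control in T-47D cells, so that both SLC43A2 probe sets had their higher signals on the T-47D arrays. SLC6A14, for ATB0,+, had 0.8 with JPH203 and 9.6 in the control in MDA-MB-231 cells, and 10.1 with JPH203 and 6.7 in the control in T-47D cells. Signals of this size were not distinguished from background here, since no detection calls were used.

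By the brightest probe sets with both arrays at 100, the median log2 ratio of JPH203 over control was 0.77 over SLC7A5 and SLC3A2 in MDA-MB-231 cells, beside -0.007 over 6777 genes. The T-47D median was 0.41 over SLC7A5, SLC3A2 and SLC7A8, beside -0.022 over 6416 genes. Where either array at 100 sufficed, SLC7A6 was let in through its control array alone in each line. The medians were then 0.74 over 3 members, beside -0.005 over 7170 genes, in MDA-MB-231 cells, and -0.084 over 4 members, beside -0.053 over 7338 genes, in T-47D cells, so that the sign of the T-47D median turned on SLC7A6. No direction of the members as a set is read from the T-47D values.

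**Figure D3:**
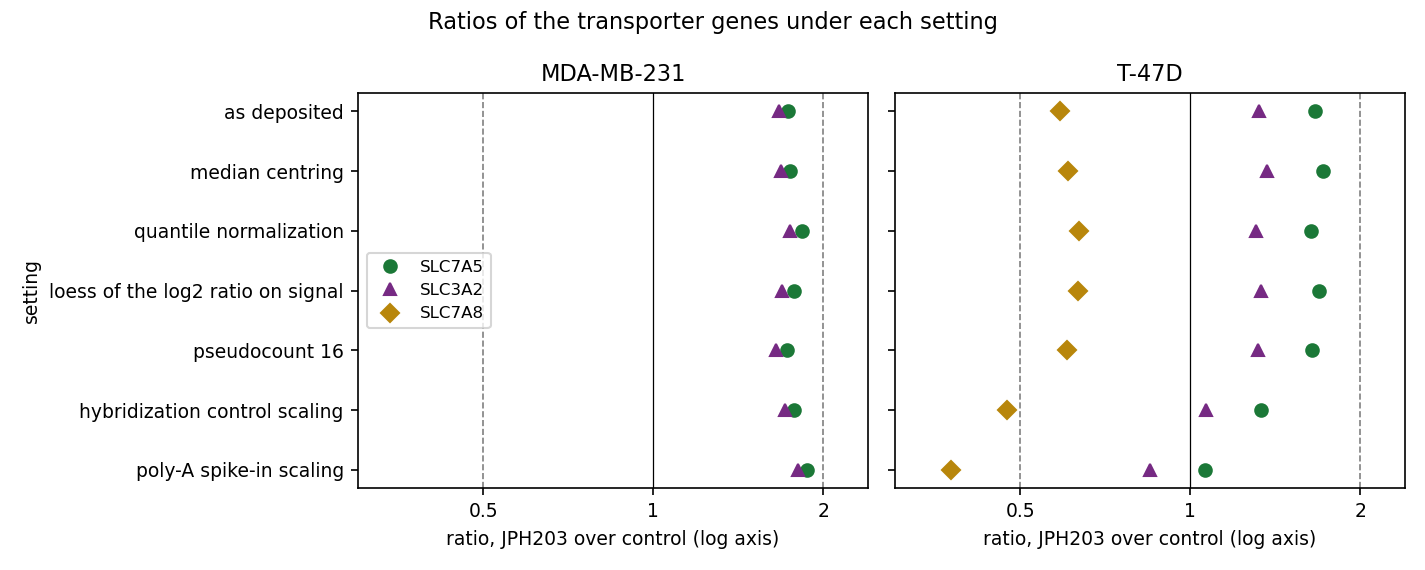
Ratio of JPH203 over control on a log axis (x axis) of SLC7A5 (green circles), SLC3A2 (purple triangles) and SLC7A8 (gold diamonds, T-47D cells alone) by setting (y axis), with MDA-MB-231 cells on the left and T-47D cells on the right, with dashed lines at 2-fold. The MDA-MB-231 ratios stay between 1.65 and 1.87, and in T-47D cells the poly-A scaling moves SLC7A5 to 1.06, SLC3A2 to 0.849 and SLC7A8 to 0.376, the last with the JPH203 signal below the minimum. That scaling puts the median log2 ratio of all T-47D genes at -0.70.

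The control arrays address how the lines differ in these carriers without the drug. SLC7A5 was higher in MDA-MB-231 controls, at 1168 against 502 in T-47D controls, a ratio of 2.33. SLC3A2 had 509 in MDA-MB-231 controls and 619 in T-47D controls, a ratio of 0.821, which was above 1 with the arrays scaled to the hybridization controls (1.19) or to the poly-A spike-ins (2.67). The median log2 ratio of all genes between the lines was 0.62 and 1.83 on these 2 scales. From the highest ratio SLC3A2 stood at 3523 of 5688 genes as deposited, 3321 of 5729 on the hybridization controls and 2702 of 5156 on the poly-A spike-ins. SLC7A8 was lower in MDA-MB-231 controls on both probe sets that reached the minimum, at 32.5 against 366 in T-47D controls on the brightest and 21.9 against 253 on the next, and as the MDA-MB-231 signals lay below 100 no size is read. SLC7A6 had 45.0 in MDA-MB-231 controls and 116 in T-47D controls on 1 probe set, and 128 and 106 on the brightest. Of the 4 members with at least 100 on either control array, SLC7A5 was called higher in MDA-MB-231 cells and SLC7A8 and SLC7A6 lower. The SLC7A6 call rests on that 1 probe set, the brightest runs the other way, and SLC7A6 was not called on the hybridization control scale. These counts stand beside 26.7% of 8311 genes called higher and 26.2% lower (37.2% and 36.2% at 1.5-fold, where the same 3 members were called), so calls between the lines are common. The SLC7A5 ratio was 3.39 after scaling to the hybridization controls and 7.57 with the poly-A spike-ins as the scale, and that of the brightest SLC7A6 probe set was 1.21 as deposited and 3.94 on that scale. SLC7A5 stood at 660 of 5688 genes as deposited, 587 of 5729 on the hybridization controls and 426 of 5156 on the poly-A spike-ins. The geometric mean of these spike-ins in MDA-MB-231 controls was 0.307 times that in T-47D controls.

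Across all 4 arrays SLC7A5 ran from T-47D control through T-47D JPH203 and MDA-MB-231 control to MDA-MB-231 JPH203, while for SLC3A2 both JPH203 arrays lay above both controls as deposited. On the hybridization control scale the SLC3A2 signal of MDA-MB-231 controls was 1.19 times that of T-47D controls and so lay above the T-47D JPH203 signal, at 1.07 times, and on the poly-A scale these were 2.67 and 0.849 times. The 5 genes most like each member were found from the log2 signals centred on their own mean over the 4 arrays, among 5264 other genes with at least 100 on every array. For SLC7A5 they were MYL12A, a myosin light chain, at a root mean square difference of 0.143, NIBAN1, a stress-induced protein, at 0.178, IARS1, the isoleucyl-tRNA synthetase, and RNA45SN5, named for the ribosomal RNA precursor, both at 0.210, and GTF2H3, a TFIIH subunit, at 0.237. For SLC3A2 they were BBS10 at 0.030, TCAIM at 0.094, PXK at 0.101, B4GALT7, a galactosyltransferase of proteoglycan synthesis, at 0.132, and MXI1, a partner of MAX, at 0.143. The BBS10 signals were 210 with JPH203 and 132 in the control in MDA-MB-231 cells, and 207 with JPH203 and 160 in the control in T-47D cells. SLC3A2 itself stood at 2028 of the 5264 in likeness to SLC7A5, at 0.693. With 4 arrays such likeness is a description.

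Genes related to the members by family or by leucine handling were read from lists of carriers, sensors and enzymes. Of 5 other chains of heteromeric transporters, only SLC7A11, the cystine transporter xCT that also pairs with 4F2hc, reached 100. It had 804.5 with JPH203 and 615 in the control in MDA-MB-231 cells, a ratio of 1.31, and 71.3 and 36.9 on the matching T-47D arrays. Of 6 further genes, among them the B0AT family and TAT1 (SLC16A10), only SLC43A3 reached 100. It was listed as a family relative of LAT3 and LAT4, not as a leucine carrier. Its signals were 855.5 with JPH203 and 864 in the control in MDA-MB-231 cells, and 42.4 and 58.7 on the matching T-47D arrays. Both were called higher in MDA-MB-231 than in T-47D controls, as were 26.7% of all genes measured.

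The carriers that load cells with glutamine for exchange through LAT1 were read as 3 genes, and SLC38A1 and SLC38A2 had lower signals on the T-47D JPH203 array than on its control, short of 2-fold. SLC38A2, a sodium-coupled glutamine importer, had 1289 with JPH203 and 1133 in the control in MDA-MB-231 cells, a ratio of 1.14, and 1489 with JPH203 and 2511 in the control in T-47D cells, a ratio of 0.593. SLC38A1, its relative, had 969 with JPH203 and 791 in the control in MDA-MB-231 cells, a ratio of 1.23, and 646 with JPH203 and 1090 in the control in T-47D cells, a ratio of 0.593. SLC1A5, the exchanger ASCT2, had 92.7 with JPH203 and 105 in the control in MDA-MB-231 cells, and 118 with JPH203 and 57.5 in the control in T-47D cells. SLC1A5 had both arrays at 100 in neither line, so it could not be called. Of the other 2 genes, 0 were called in either line with JPH203. Beside these stand 0.0883% of all genes called higher and 0.0147% lower in MDA-MB-231 cells. In T-47D cells 2.56% were called higher and 2.95% lower, and 15.7% were at least 1.5-fold lower, as SLC38A1 and SLC38A2 were. On the hybridization control scale the T-47D ratios of SLC38A1 and SLC38A2 were both 0.476, past 2-fold, where 512 of 5591 genes were called lower. Over SLC38A1 and SLC38A2, which had both arrays at 100, the median log2 ratio was 0.24 for MDA-MB-231 and -0.75 for T-47D cells. SLC38A2 was called lower in MDA-MB-231 controls than in T-47D controls as deposited, as were 26.2% of 8311 genes. Its ratio was 0.451 on the brightest probe set, and on the others it was 0.479, also called, and 0.517, not called.

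Among 6 leucine sensing genes, the brightest probe set of 3 reached 100 in each line, and 0 were called with JPH203. Of all genes, 0.0883% were called higher and 0.0147% lower in MDA-MB-231 cells, and 2.56% higher and 2.95% lower in T-47D cells. SAR1B, a small GTPase, had 713 with JPH203 and 775 in the control in MDA-MB-231 cells, and 1481 with JPH203 and 1300 in the control in T-47D cells. LARS1, the leucyl-tRNA synthetase, had 1131 with JPH203 and 974.7 in the control in MDA-MB-231 cells, and it had 481 with JPH203 and 815 in the control in T-47D cells. Over the 3 genes the median log2 ratio was -0.12 for MDA-MB-231 and -0.22 for T-47D cells. Of 6 genes of branched-chain amino acid breakdown, 0 were called with JPH203, beside the same shares of all genes, and 3 between the control arrays, where 26.7% of all genes were called higher in MDA-MB-231 cells and 26.2% lower. The median log2 ratio with JPH203 was 0.04 over 3 genes in MDA-MB-231 cells and -0.02 over 5 genes in T-47D. BCAT1, the cytosolic transaminase of leucine, had 717 in MDA-MB-231 controls and 4.3 in T-47D controls. BCKDHA, a subunit of the branched-chain ketoacid dehydrogenase, had 32.5 in MDA-MB-231 controls and 267 in T-47D controls, and BCKDHB, its partner subunit, had 67.8 and 137.

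**Figure D4:**
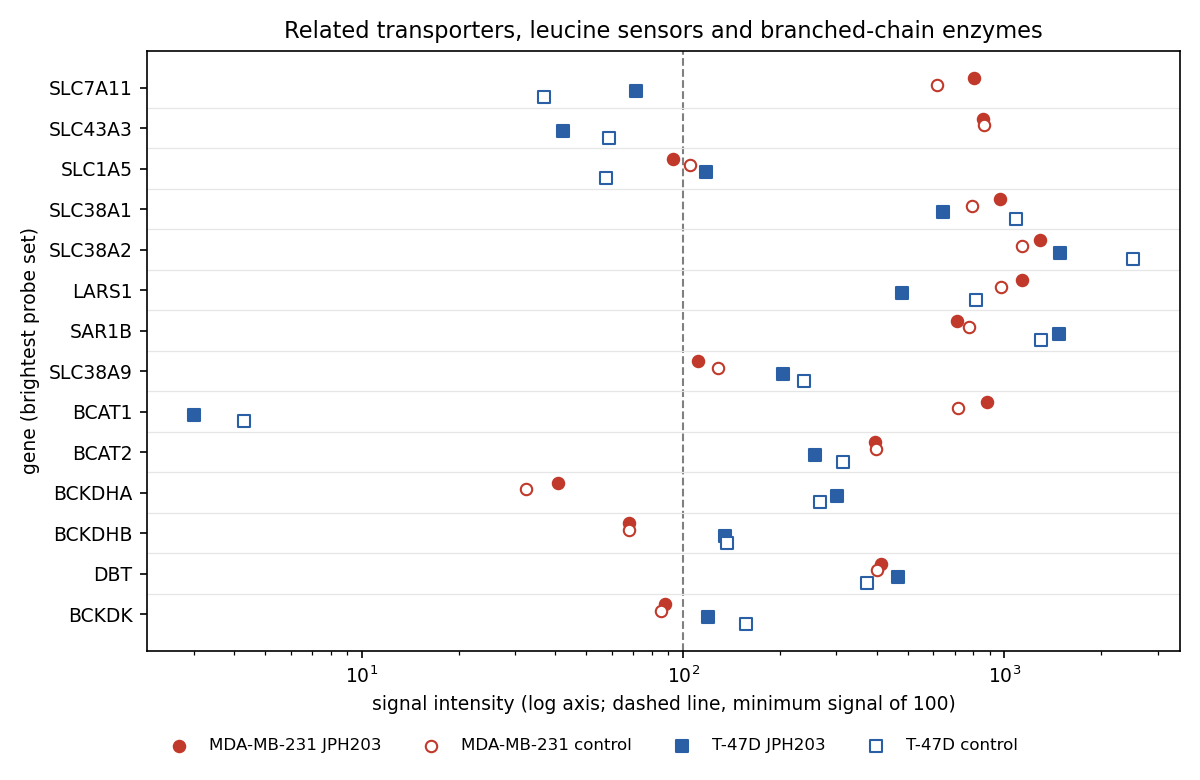
Signal intensity on a log axis (x axis) of the brightest probe set of the 14 related genes in which it reached 100 on at least 1 array (y axis), each point being 1 array, with filled symbols for JPH203, open symbols for control, red circles for MDA-MB-231 and blue squares for T-47D cells. SLC38A1, SLC38A2 and LARS1 lie left of their control in T-47D cells (ratios of 0.590 to 0.593) and right of it in MDA-MB-231 cells, and BCAT1 lies at 717 to 880 in MDA-MB-231 cells and at 3.0 to 4.3 in T-47D cells.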

How the data were processed

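Total RNA of each culture was hybridised to a U133 Plus 2.0 array, and the authors deposited linear signal intensity values for 54675 probe sets. GCOS is the software credited in the submitters' processing notes; its version is not given in the sources used here. GEO's platform annotation gives 1 gene for 41097 probe sets, several for 1801 and no entry for 11777. Of the first, 41043 were matched by gene identifier to RefSeq (GRCh38.p14), which changed 0 symbols.

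Ratios of signals were computed within each cell line (JPH203 over control) and between the control arrays (MDA-MB-231 over T-47D). A gene was called when at least 1 probe set naming it alone changed at least 2-fold and both arrays reached 100, or either array for the comparison of the lines. The gene level is that of the probe set with the highest mean signal over the 4 arrays. The genes named were all 8 members, each at every probe set, the called or else brightest gene of each related list, and the 5 genes most like SLC7A5 and SLC3A2. SLC38A1, SLC1A5 and LARS1 were added after their values were seen. The members and lists were chosen with earlier results of these data known.

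Alternatives were median centring, quantile normalization, loess (span 0.4), scaling to poly-A spike-ins of at least 50 on every array, a pseudocount of 16, minimum signals of 50 and 200, thresholds of 1.5-fold and 3-fold, and other choices of probe set. Scaling to the hybridization controls, and medians over genes with both arrays at 100, were chosen after seeing the data. The planned protein comparison was not made, as no protein table was used here. The code was tested on simulated data with known changes, which says nothing of the noise between arrays. The number of arrays limits the precision. Python 3.11.15, numpy 2.4.6, pandas 2.3.3, statsmodels 0.14.6 and matplotlib 3.10.9 were used.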

Additional observations from a re-analysis of the deposited data

Results flagged for a closer look

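Related genes whose brightest probe set reached 100 on every array were singled out where the ratio of JPH203 over control lay on opposite sides of 1 in the 2 lines. The opposite directions were thus fixed by the rule, and the share of all genes that meet it was not counted. The log2 ratio in MDA-MB-231 minus that in T-47D cells was 1.05 for SLC38A1, 0.94 for SLC38A2, 0.98 for LARS1 and -0.31 for SAR1B. On the brightest probe sets, the first 3 were above their control in MDA-MB-231 and below it in T-47D cells, and SAR1B the reverse. A dimmer LARS1 probe set, at 100 or more on all 4 arrays, lay below control for both lines (MDA-MB-231 ratio 0.770, T-47D ratio 0.737). A SAR1B probe set near 100 ran opposite to the brightest, with 127.8 (JPH203) and 93.1 (control) for MDA-MB-231 cells. Its matching T-47D signals were 91.5 and 135.9, so no ratio is read. The other LARS1 and SAR1B probe sets with every array at 100 went with the brightest. On the hybridization control scale the T-47D ratio was 0.476 for SLC38A1, 0.476 for SLC38A2, 0.474 for LARS1 and 0.915 for SAR1B. So the first 3 passed the 2-fold threshold, where 512 of 5591 genes were called lower, and SAR1B was no longer above its control. On the poly-A spike-in scale the difference for SAR1B was 0.44, of the other sign, and those of the other 3 genes were 1.69 to 1.80. With 1 array per group these differences were not tested.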

How the results depend on the processing

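No paired analysis was possible because each group holds 1 array, and for the same reason no replicate could be left out. The median log2 ratio of the members in MDA-MB-231 cells lay between 0.72 and 0.85 over its settings. At 1.5-fold, SLC7A5 and SLC3A2 were called higher in MDA-MB-231 cells, beside 0.869% of genes. In T-47D cells SLC7A5 was called higher, beside 12.9% of genes, and SLC7A8 lower, beside 15.7%. At 3-fold 1 member, SLC7A8, was called between the lines, with its MDA-MB-231 control signals below 100. The share of all genes called at 3-fold was not counted. Averaging every probe set of a gene left 1 member called between the lines, SLC7A5, with no share of all genes counted beside it. The median in T-47D cells was then 0.57, over the 2 members still at the minimum. That median, -0.084 with either array at 100, was also above 0 with both arrays at 100 (0.41, 3 members), at a minimum signal of 50 (0.41, 5 members) or 200 (0.41, 3 members) and on the hybridization controls (0.09, 3 members). Scaling to the hybridization controls called 1 member in T-47D cells, SLC7A8, as lower. On that scale 512 of 5591 genes were called lower in T-47D cells, and the median log2 ratio of all genes was -0.38. Scaling to the poly-A spike-ins put the MDA-MB-231 minus T-47D difference of log2 ratios at 0.81 for SLC7A5 and 1.09 for SLC3A2, and moved the median log2 ratio of all genes to -0.70 in T-47D cells and to 1.83 between the lines; the cause of the unequal spike-in signals was not tested. Without _x_at and _s_at probe sets no member reached 100, so no value was had. The T-47D calls over all genes were 165 higher and 190 lower as deposited, 209 and 161 after median centring, 173 and 133 after quantile normalization, 210 and 132 after loess, 43 and 512 on the hybridization controls and 17 and 845 on the poly-A spike-ins. Between the lines they were 2217 higher and 2177 lower as deposited, 3583 and 1304 on the hybridization controls and 6995 and 480 on the poly-A spike-ins. In MDA-MB-231 cells they were 6 and 1 as deposited, 6 and 2 on the hybridization controls and 22 and 3 on the poly-A spike-ins. SLC7A5 stood at 8 to 27 and SLC3A2 at 11 to 36 from the highest MDA-MB-231 ratio over the scalings.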

Other observations

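Probe sets that name several genes were left out of the values above, and 6 of them name SLC7A5P1 or SLC7A5P2, pseudogenes of SLC7A5, 1 naming only this pair and 5 naming other genes as well. Their signals lay between 0.9 and 76.4 over the 4 arrays, below the minimum throughout, while the SLC7A5 probe set, which can share sequence with other transcripts by its type, had 501.8 to 2024.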
